A study of Drosophila melanogaster with 10 samples.

Results

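The binding sites of Su(Hw) and CP190 were compared in Kc167 cells, an established Drosophila melanogaster line derived from embryos, using all 2369 Su(Hw) peaks and all 2742 CP190 peaks. These 5111 peaks were all members of the 2 lists, of 9570 peaks in the 5 lists of the series, and no peak was selected by a measured value. A peak counted as shared when it overlapped a peak of the other list by 1 bp or more. The series mapped Su(Hw), CP190, Mod(mdg4)2.2, Rump and Shep by chromatin immunoprecipitation followed by sequencing (ChIP-seq), which recovers and sequences the DNA bound by a protein, in 8 ChIP libraries and 2 input libraries. Su(Hw) was precipitated with a rabbit antibody from chromatin preparation a, with input a as its control, and CP190 with a rabbit antibody from chromatin preparation b, with input b. All cells were grown at 25 °C, and the labels name no treatment or mutation. Each of the 2 lists rests on 1 library from 1 cell line, so the factor and the preparation cannot be told apart, and no test between the factors was possible. Intervals are 95% intervals that cover counting error over peaks only, and read numbers were not at hand, so the depth is unknown.

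Su(Hw), named after the suppressor of Hairy-wing gene, is a zinc-finger protein that binds a long DNA motif, among others in the gypsy retrotransposon. CP190 is a zinc-finger protein with a BTB domain that is brought to DNA by several insulator proteins, including Su(Hw), CTCF and BEAF-32. Mod(mdg4)2.2, another BTB-domain protein, joins them in the gypsy insulator, a complex known for blocking communication between enhancers and promoters. Rump, related to hnRNP M, and Shep both bind RNA, and Shep is known to act on the gypsy insulator.

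About equal parts of the Su(Hw) list lay at CP190 and away from it. CP190 was present at 1166 Su(Hw) peaks (49.2%, interval 47.2 to 51.2), and 1203 Su(Hw) peaks met no CP190 peak. Su(Hw) was present at 1183 CP190 peaks (43.1%, 41.3 to 45.0), and 1559 CP190 peaks met no Su(Hw) peak. In sequence covered, the Su(Hw) peaks held 5.23 Mb and the CP190 peaks 5.34 Mb, of which 2.27 Mb lay in both. That was 43.4% of the Su(Hw) sequence and 42.5% of the CP190 sequence. The shared peaks formed 1188 overlapping pairs, and in 1136 pairs (95.6%, 94.3 to 96.7) each peak met a single peak of the other list. Of the shared Su(Hw) peaks, 22 met 2 CP190 peaks, whereas 5 CP190 peaks met 2 Su(Hw) peaks.

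Where the lists overlapped, the peaks were nearly centred on each other. The median distance between the Su(Hw) and the CP190 midpoint was 80.5 bp (73.5 to 90.5), with quartiles of 29.5 and 231.5 bp. The midpoints lay within 50 bp in 437 pairs (36.8%), within 100 bp in 655 (55.1%, 52.3 to 57.9) and within 500 bp in 1039 (87.5%, 85.4 to 89.2). In 65 pairs (5.47%, 4.32 to 6.91) they were more than 1000 bp apart. The CP190 midpoint had the higher coordinate in 578 pairs (48.7%) and the lower one in 607 (51.1%). The 52 pairs in which a peak met several had a median offset of 988 bp (831 to 1216), against 75 bp (69 to 82) in the other 1136 pairs. Peaks of the same list did not overlap each other. A peak that met several could therefore not be centred on all of them, and larger offsets follow from this.

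**Figure D1:**
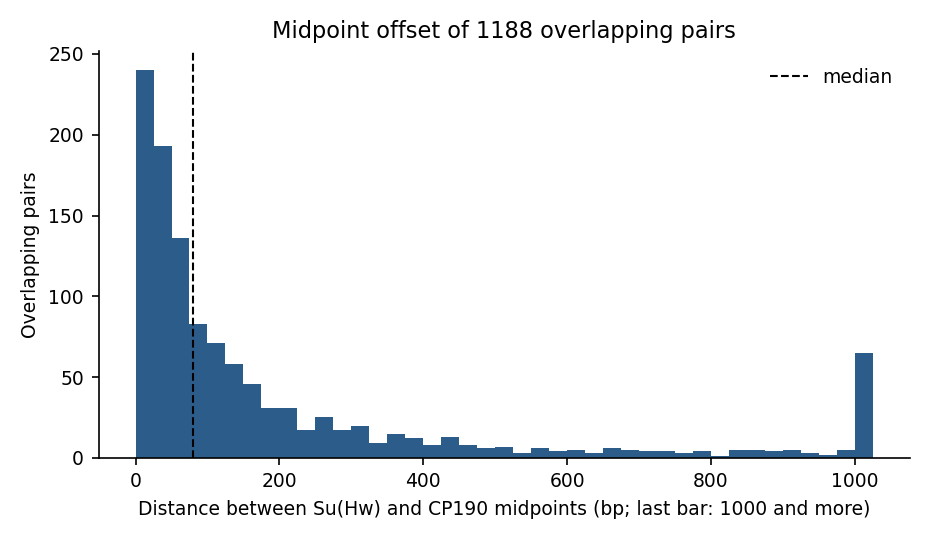
Number of overlapping Su(Hw) and CP190 pairs (y axis) by the distance between their midpoints in bp (x axis, bars of 25 bp, the last bar holding all pairs at 1000 bp or more), with the median of 80.5 bp as a dashed line. Most of the 1188 pairs lie near 0, and 655 have midpoints within 100 bp.

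The median overlap was 2004 bp (1999 to 2014), close to the usual peak width of both lists. The narrower peak of the pair lay wholly within the wider one in 766 pairs (64.5%, 61.7 to 67.1). In 610 pairs (51.4%, 48.5 to 54.2) the CP190 peak lay inside the Su(Hw) peak, in 156 pairs (13.1%, 11.3 to 15.2) the Su(Hw) peak lay inside the CP190 peak, and 422 pairs (35.5%) were staggered. The Su(Hw) peak was the wider in 871 pairs and the CP190 peak in 316. The median pair had 92.1% of its Su(Hw) peak and 100% of its CP190 peak in the overlap.

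Positions below are in genome build dm3 and count from 1, and genes at these places were not analysed here. Named regions are limited to 2L, 3L, 3R and X. The longest overlap named was on X, where Su(Hw) at chrX:10452191-10456846 and CP190 at chrX:10452481-10456855 shared 4366 bp with midpoints 149.5 bp apart. Mod(mdg4)2.2 and Rump were present there too, as at the second, on 3L, where CP190 at chr3L:18939362-18943414 lay wholly inside Su(Hw) at chr3L:18939244-18943508, with an offset of 12 bp over 4053 bp. The third, on X, joined Su(Hw) at chrX:7569035-7574072 and CP190 at chrX:7570105-7574156 over 3968 bp, and its midpoints were 577 bp apart. Coinciding midpoints, with an offset of 0 bp, were found on X for Su(Hw) at chrX:7533839-7536037 with CP190 at chrX:7533928-7535948, and for Su(Hw) at chrX:9771289-9773302 with CP190 at chrX:9771218-9773373. On 2L, Su(Hw) at chr2L:13640812-13642970 and CP190 at chr2L:13640740-13643043 were 0.5 bp apart and met none of the other 3 factors.

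The 1 bp rule had few members near its edge. Of the pairs, 7 overlapped by less than 100 bp and 30 (2.53%, 1.78 to 3.58) by less than 50% of the narrower peak. The shortest overlaps named were 2 bp, between Su(Hw) at chr3L:8243837-8245854 and CP190 at chr3L:8245853-8247902, and 3 bp, between Su(Hw) at chr3L:3220024-3222059 and CP190 at chr3L:3222057-3226013. Just outside the rule, Su(Hw) at chr3R:4529846-4532008 and CP190 at chr3R:4532033-4534086 were separated by 24 bp, as were Su(Hw) at chr2L:5338012-5340145 and CP190 at chr2L:5340170-5342254. All 4 of these peaks held a Mod(mdg4)2.2 peak.

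Gaps from unshared peaks to the other list were mostly longer than 1000 bp. The median gap from the edge of an unshared Su(Hw) peak to the nearest CP190 peak was 14223 bp (13045 to 15467), over the 1197 unshared peaks on sequences where CP190 had a peak. For unshared CP190 peaks the median gap to Su(Hw) was 19757 bp (18683 to 21149). The median distance between nearest midpoints of the same list was 15370 bp for Su(Hw) and 14482 bp for CP190. Distances between midpoints include parts of the peaks and the gaps do not, so the values cannot be compared directly. Within 1000 bp of the other list lay 57 unshared Su(Hw) peaks (4.76%, 3.69 to 6.12) and 54 unshared CP190 peaks (3.46%, 2.66 to 4.49). Within 10000 bp of it lay 467 unshared Su(Hw) peaks (39.0%) and 459 unshared CP190 peaks (29.4%). The 5 arms held 19.6 Su(Hw) and 23.0 CP190 peaks per Mb. The shares that this density alone would give were not computed, so the counts do not show a lack of close neighbours. Gaps above 50000 bp were found for 137 Su(Hw) peaks (11.4%, 9.76 to 13.4) and 282 CP190 peaks (18.1%, 16.3 to 20.1). Among the named peaks, the Su(Hw) peak farthest from CP190 was chr2L:22956512-22958155, at 601343 bp, and the CP190 peak farthest from Su(Hw) was chrX:1542182-1544062, at 312195 bp.

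Of the other 3 factors, Mod(mdg4)2.2 had the largest difference in percentage points between shared and unshared peaks. It was mapped by 2 antibodies on preparation a, and the rule for shared peaks did not use it. Over all Su(Hw) peaks 67.4% held Mod(mdg4)2.2. The share was 90.2% of shared Su(Hw) peaks (1052 of 1166, 88.4 to 91.8) and 45.3% of unshared ones (545 of 1203, 42.5 to 48.1). The difference was 44.9 percentage points (41.6 to 48.1). With both lists cut to their wider 50% and sharing set anew, this difference was 22.04 points. A peak whose partner was cut then counted as unshared. Over all CP190 peaks 52.2% held Mod(mdg4)2.2. It was at 89.8% of shared peaks (1062 of 1183, 87.9 to 91.4) and 23.7% of unshared ones (369 of 1559, 21.6 to 25.8). That difference was 66.1 points (63.2 to 68.7). Read the other way, CP190 was at 65.9% (63.5 to 68.2) of the 1597 Su(Hw) peaks with Mod(mdg4)2.2 and at 14.8% (12.4 to 17.4) of the 772 without it. Su(Hw) was at 74.2% (71.9 to 76.4) of the 1431 CP190 peaks with Mod(mdg4)2.2 and at 9.23% (7.78 to 10.9) of the 1311 without it. More than 1 Mod(mdg4)2.2 peak was also more common at shared sites. Exactly 2 were met by 13.4% of shared Su(Hw) peaks (11.5 to 15.4) and 2.49% of unshared ones (1.75 to 3.54), and by 11.6% of shared CP190 peaks (9.88 to 13.5) and 0.834% of unshared ones (0.488 to 1.42). These shares are of all peaks of each group, with or without Mod(mdg4)2.2, and peak width was not held fixed.

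**Figure D2:**
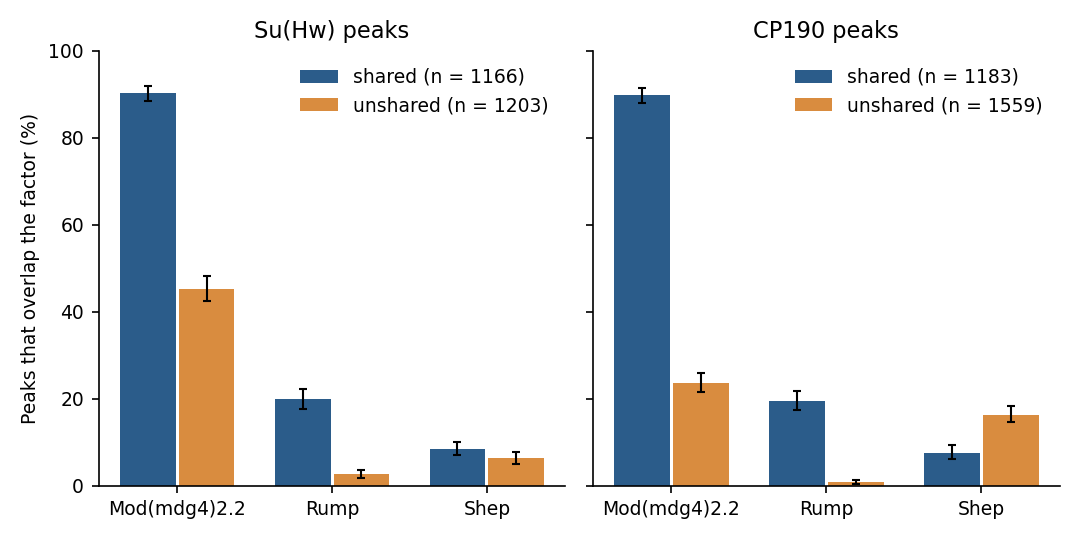
Percent of shared and unshared peaks that overlap a peak of Mod(mdg4)2.2, Rump or Shep (y axis), for Su(Hw) peaks on the left and CP190 peaks on the right. Bars give the share and error bars its Wilson 95% interval. Mod(mdg4)2.2 is at 90.2% of shared and 45.3% of unshared Su(Hw) peaks, and at 89.8% of shared and 23.7% of unshared CP190 peaks.

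A wide peak is more likely to meet any other list, so the comparison was also read within classes of width. The classes were set after the widths were known. Among Su(Hw) peaks of 2000 to under 2200 bp, Mod(mdg4)2.2 was at 91.8% of 463 shared peaks (88.9 to 94.0) and at 53.5% of 486 unshared ones (49.0 to 57.9), a difference of 38.3 points. Among CP190 peaks of that width it was at 94.1% of 591 shared peaks (91.9 to 95.7) and at 33.4% of 689 unshared ones (29.96 to 37.0), a difference of 60.7 points. In every one of the 6 width classes, in both lists, shared peaks held it more often than unshared ones. The intervals of the 2 groups overlapped in a single class, that of the narrowest Su(Hw) peaks (5 of 10 shared and 8 of 41 unshared).

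Rump and Shep differed from each other in how they went with sharing. Over all peaks Rump was at 11.1% of Su(Hw) and 8.86% of CP190 peaks. It was at 19.9% of shared (17.7 to 22.3) and 2.58% of unshared Su(Hw) peaks (1.82 to 3.63), and at 19.5% of shared (17.4 to 21.9) and 0.770% of unshared CP190 peaks (0.441 to 1.34). Read the other way, CP190 was at 88.2% (83.8 to 91.6) of the 263 Su(Hw) peaks with Rump, and Su(Hw) was at 95.1% (91.6 to 97.2) of the 243 CP190 peaks with Rump, both above the shares among peaks with Mod(mdg4)2.2. Nearly all of these peaks with Rump also held Mod(mdg4)2.2, so they are mostly a part of that group. Peak width was not held fixed for Rump or Shep. With Mod(mdg4)2.2 held present, Rump was at 22.1% of the shared Su(Hw) peaks (232 of 1052, 19.7 to 24.7) and at 4.59% of the unshared ones (25 of 545, 3.13 to 6.68). In CP190 peaks with Mod(mdg4)2.2 it was at 21.8% of shared (231 of 1062, 19.4 to 24.3) and 2.44% of unshared ones (9 of 369, 1.29 to 4.57). No Rump peak was found at the 114 shared Su(Hw) peaks without Mod(mdg4)2.2, which allows a share of up to 2.63% (3 counts of the total), or at the 121 such CP190 peaks, which allows up to 2.48%. Rump was also rare at unshared peaks without Mod(mdg4)2.2, with 6 of 658 Su(Hw) peaks (0.912%, 0.419 to 1.98) and 3 of 1190 CP190 peaks (0.252%, 0.0858 to 0.739), so no difference was detectable there. Shep was at 7.34% of all Su(Hw) and 12.6% of all CP190 peaks. At CP190 peaks it was less frequent in the shared group, with 7.61% (6.23 to 9.26) of shared and 16.4% (14.6 to 18.3) of unshared peaks. Within CP190 peaks that held Mod(mdg4)2.2, the difference was of the same kind, at 6.87% of shared (73 of 1062, 5.50 to 8.56) and 19.0% of unshared peaks (70 of 369, 15.3 to 23.3). Within those without Mod(mdg4)2.2 the intervals overlapped, at 14.0% (17 of 121, 8.96 to 21.4) and 15.5% (185 of 1190, 13.6 to 17.7). At Su(Hw) peaks, Shep was at 8.40% of shared (6.95 to 10.1) and 6.32% of unshared ones (5.08 to 7.84), a difference of 2.09 points whose interval (-0.0188 to 4.22) includes 0. Within Su(Hw) peaks with Mod(mdg4)2.2, Shep was at 7.8% of shared (82 of 1052, 6.32 to 9.57) and 6.97% of unshared ones (38 of 545, 5.12 to 9.43). The intervals overlapped there. Within Su(Hw) peaks without Mod(mdg4)2.2, it was at 14.0% of shared (16 of 114, 8.83 to 21.6) and 5.78% of unshared ones (38 of 658, 4.24 to 7.83). None of the 3 factors was met by 8.40% of shared and 51.1% of unshared Su(Hw) peaks, or by 8.79% of shared and 64.3% of unshared CP190 peaks.

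Sharing also followed the authors' own score of the Mod(mdg4)2.2 peaks, a value given for each peak whose scale is not stated and which was used to rank peaks within that list. Of the 2678 Mod(mdg4)2.2 peaks, 1206 (45.0%) met both lists, 623 (23.3%) Su(Hw) only, 403 (15.0%) CP190 only and 446 (16.7%) neither. The median score was 173 (165 to 181) at sites of both, 91.7 (86.9 to 102) at Su(Hw) only, 68.9 (64.7 to 73.8) at CP190 only and 59.0 (57.6 to 61.5) at neither. In the decile of highest score 88.1% of the peaks (83.6 to 91.4) met both lists, in the fifth 45.1% (39.3 to 51.1) and in the lowest 13.8% (10.2 to 18.4). Sites of CP190 only took the other course, with 1.49% (0.582 to 3.77) in the top decile and 25.0% (20.2 to 30.5) in the bottom one. Sites of Su(Hw) only had no such slope, with 10.1% (7.02 to 14.3) in the highest decile, 32.8% (27.5 to 38.7) in the fifth and 20.9% (16.5 to 26.2) in the lowest.

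**Figure D3:**
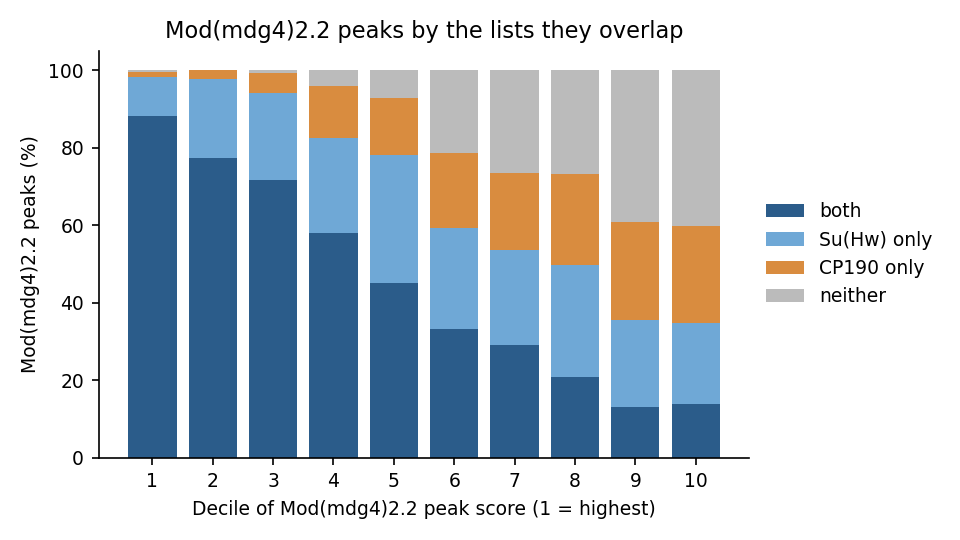
Mod(mdg4)2.2 peaks (y axis, percent) by decile of their score (x axis, 1 is the highest, 267 or 268 peaks each), split by whether they overlap both Su(Hw) and CP190, Su(Hw) only, CP190 only or neither. The part that overlaps both is 88.1% in the highest decile and 13.8% in the lowest.

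The narrow Mod(mdg4)2.2 peaks, 304 bp each, gave a common mark for the position of both factors. In 847 pairs both peaks met the same Mod(mdg4)2.2 peak and no other. Its midpoint lay a median of 45.5 bp (41 to 51.5) from the Su(Hw) midpoint and 25 bp (23 to 27.5) from the CP190 midpoint. It was nearer to CP190 in 539 of these pairs (63.6%, 60.3 to 66.8) and nearer to Su(Hw) in 305. The Mod(mdg4)2.2 and Su(Hw) libraries share preparation a, and CP190 comes from b. With both peaks between 1800 and 2200 bp wide, the distances were 25.8 bp (22.5 to 29) to Su(Hw) and 19.5 bp (17.5 to 22.5) to CP190 in 372 pairs, and Mod(mdg4)2.2 was nearer to CP190 in 59.7% (54.6 to 64.5). At unshared peaks with 1 Mod(mdg4)2.2 peak the distance was 38 bp (34 to 43) for 513 Su(Hw) peaks and 36.8 bp (32.5 to 42) for 356 CP190 peaks. Rump showed the same order in 223 pairs, with 63 bp (46 to 75) to Su(Hw) and 31.5 bp (21 to 36) to CP190. Shep lay farther out in its 78 pairs, at 377 bp (243 to 533) from the Su(Hw) and 215 bp (140 to 284) from the CP190 midpoint.

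The centring of the pairs also varied with Mod(mdg4)2.2. The median offset between Su(Hw) and CP190 was 76.5 bp (70.5 to 86) in the 1081 pairs with Mod(mdg4)2.2 and 144 bp (109 to 224) in the 107 pairs without it. Pairs with it overlapped over 2017 bp (2007 to 2024), against 1588 bp (1393 to 1769) without it, and their Su(Hw) peaks were wider, at 2190 bp (2173 to 2205) with and 1981 bp (1945 to 2009) without it. By quartile of the score of the single Mod(mdg4)2.2 peak, the offset was 51.5 bp (42 to 62.5) in the highest, 53 bp (41.5 to 62.5) in the second, 68.8 bp (48.5 to 80.5) in the third and 76 bp (65 to 97.5) in the lowest. The offset differed in the same direction for Rump, with 62 bp (49 to 73) in 237 pairs with it and 87 bp (78.5 to 103) in 951 without it. Peak width was not held fixed in these comparisons.

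Shared peaks were slightly wider than unshared ones. A wide peak meets the other list more often, so the overlap rule itself favours wide peaks and the widths are a description only. Median widths were 2167 bp (2150 to 2182) for shared and 2049 bp (2039 to 2060) for unshared Su(Hw) peaks. The difference was 117.5 bp (97.7 to 136), and 75 bp with sharing set on peaks resized to 300 bp. With both lists cut to their wider 50% and sharing set anew, it was 78 bp. For CP190 the median widths were 2052 bp (2043 to 2062) in shared and 2004 bp (2000 to 2012) in unshared peaks. That difference was 48 bp (35.96 to 58.8), 40 bp with sharing set on resized peaks and 14 bp after the cut to the wider 50%. The widths of both lists crowded around 2 kb, with 55.6% of Su(Hw) and 66.6% of CP190 peaks between 1800 and 2200 bp. CP190 was at 31.2% (26.7 to 36.2) of the 368 Su(Hw) peaks of 1800 to under 2000 bp and at 69.0% (62.3 to 75.1) of the 197 of 3000 bp or more. Su(Hw) was at 42.2% (38.2 to 46.4) of the 547 CP190 peaks in the first of these classes and at 67.4% (57.1 to 76.3) of the 89 in the second. A small separate set had a fixed minimum width, with 51 Su(Hw) peaks of exactly 300 bp and 139 CP190 peaks of exactly 480 bp, and neither list had a peak between that width and 1000 bp. Of these minimum-width peaks 10 Su(Hw) (19.6%, 11.02 to 32.5) and 30 CP190 peaks (21.6%, 15.6 to 29.1) were shared. How the peak caller set the widths is not given in the sources used here.

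**Figure D4:**
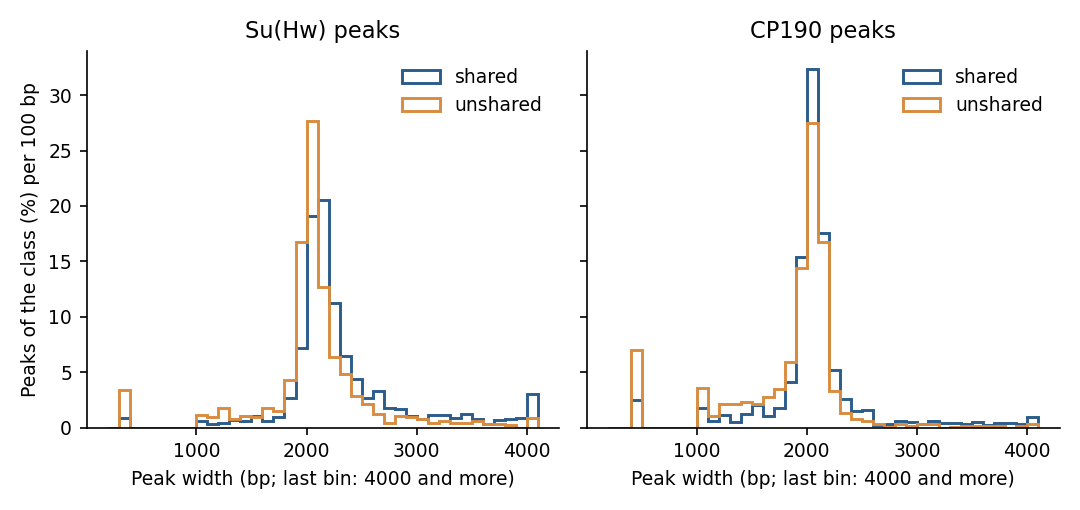
Distribution of peak width (x axis, bp, bins of 100 bp, the last bin holding all peaks of 4000 bp or more) as percent of the shared or unshared peaks (y axis), for Su(Hw) on the left and CP190 on the right. Both lists crowd around 2000 bp, shared peaks reach farther to the right, and the separate step at the left edge holds the 51 Su(Hw) peaks of 300 bp and the 139 CP190 peaks of 480 bp.

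Among the named arms, unshared Su(Hw) was widest at chr3L:8929040-8935723, with 6684 bp and the nearest CP190 peak 22430 bp away, and none of the other 3 factors was there. The next were chrX:20912818-20917911 (5094 bp) and chr3R:5992702-5997764 (5063 bp), with CP190 6200 bp and 30717 bp away, which both held Mod(mdg4)2.2 and Shep. The 3 widest unshared CP190 peaks among these arms were all on X, at chrX:11241008-11245570 (4563 bp), chrX:7826414-7830878 (4465 bp) and chrX:1712139-1716332 (4194 bp), and all 3 lacked Mod(mdg4)2.2, Rump and Shep. Their nearest Su(Hw) peaks were 18662, 66791 and 139925 bp away.

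The median distance to the nearest midpoint of the same list was 13813 bp (12748 to 15370) for shared and 16418 bp (15340 to 17723) for unshared Su(Hw) peaks, a ratio of 0.841 (0.753 to 0.955). With both lists cut to their wider 50%, spacing and sharing were set among the kept peaks only, and the Su(Hw) ratio was 1.22 (0.929 to 1.57). For CP190 the medians were 13454 bp (12697 to 14651) in shared and 15256 bp (14155 to 16229) in unshared peaks, a ratio of 0.882 (0.810 to 0.988). The CP190 ratio had an interval that includes 1 with midpoints within 500 bp (0.940, 0.852 to 1.04), with peaks resized to 300 bp (0.936, 0.843 to 1.04), with peaks closer than 1 kb merged (0.935, 0.849 to 1.02) and in the wider 50% (0.950, 0.803 to 1.09). Without X the Su(Hw) ratio was 0.853 (0.751 to 1.003). The share of Su(Hw) peaks with CP190 was 52.9% (48.0 to 57.8) where the next Su(Hw) peak was less than 5 kb away and 45.8% (40.5 to 51.2) where it was 50 kb or more away. For CP190 peaks the shares with Su(Hw) were 47.2% (42.6 to 51.7) and 41.7% (35.7 to 48.0). The intervals of near and far peaks overlapped in both lists.

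The share varied by arm for Su(Hw) peaks, with intervals on 2R and 3L that did not overlap that on 3R. CP190 was at 55.5% (50.5 to 60.3) of Su(Hw) peaks on 2R and 55.1% (50.3 to 59.8) on 3L, and at 46.4% (41.6 to 51.3) on 2L, 46.0% (42.2 to 49.9) on 3R and 48.6% (44.2 to 53.1) on X. Su(Hw) was at 47.5% (43.6 to 51.4) of CP190 peaks on 3R, 44.5% (40.3 to 48.7) on 3L, 41.6% (37.5 to 45.8) on 2R, 40.9% (36.5 to 45.4) on 2L and 40.5% (36.6 to 44.6) on X. The order of the arms was thus not the same from both sides, and 3R held 630 Su(Hw) and 623 CP190 peaks while 2R held 393 Su(Hw) and 529 CP190 peaks. The share on X minus that on the 4 autosomal arms was -1.56 points (-6.58 to 3.48) for Su(Hw) and -3.33 points (-7.83 to 1.27) for CP190, and both intervals include 0. With peaks resized to 300 bp the CP190 difference was -4.51 points, and its interval (-8.71 to -0.1001) leaves out 0. Chromosome 4 held 8 Su(Hw) and 13 CP190 peaks, of which 5 in each list were shared.

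**Figure D5:**
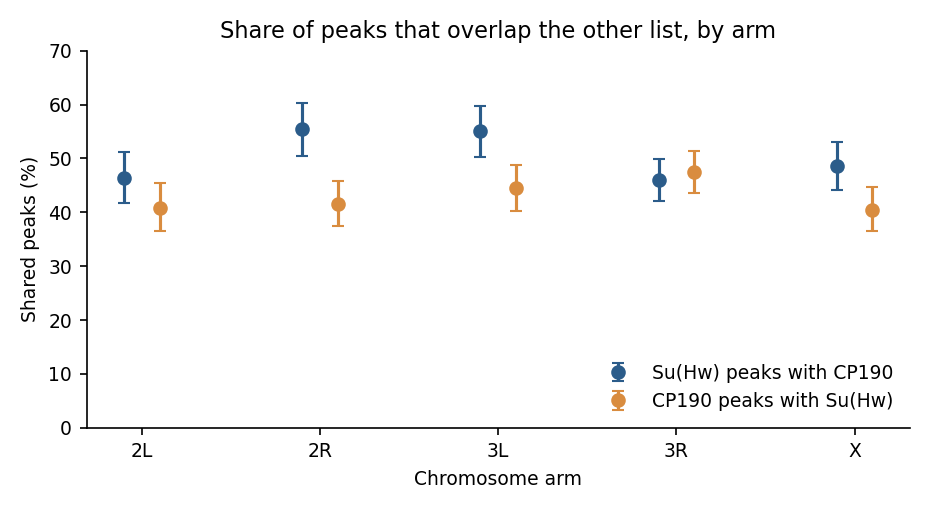
Percent of peaks that overlap the other list (y axis) on each chromosome arm (x axis), for Su(Hw) peaks with CP190 and CP190 peaks with Su(Hw). Points give the share and bars its Wilson 95% interval. Su(Hw) peaks range from 46.0% on 3R to 55.5% on 2R, and CP190 peaks from 40.5% on X to 47.5% on 3R.

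Outside the arms and chromosome 4, Su(Hw) peaks mostly had no CP190 partner. The scaffolds of heterochromatin (Het), the unplaced sequence (U) and mitochondrial DNA (M) held 37 Su(Hw) peaks and 5 CP190 peaks. Of these, 2 Su(Hw) peaks and 2 CP190 peaks were shared, all on 3LHet, where Su(Hw) had 12 peaks and CP190 had 2. The 25 Su(Hw) peaks on 2RHet, 3RHet, U and M, with 4, 6, 13 and 2 peaks, were all unshared. CP190 had no peak on 2RHet or M, so the Su(Hw) peaks there could not be shared, and it had 1 on 3RHet and 2 on U. How reads from repeated sequence were treated is not given in the sources used here, and its part in these counts was not tested.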

How the data were processed

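For Su(Hw) and CP190 the authors deposited only peak positions, with starts counted from 0. Per the submitters' processing notes, build dm3 was used, with Bowtie 0.12.8, Picard 1.77, bedtools 2.17.0, Trimmomatic 0.20 and cutadapt 1.1. No source used here names the peak caller, its threshold or the read numbers. The Mod(mdg4)2.2, Rump and Shep lists each combine 2 libraries. For Mod(mdg4)2.2 the score in the seventh column, as deposited by the authors, was used to rank peaks.

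Shares carry Wilson 95% intervals. Medians carry 95% intervals from binomial order statistics, and differences and ratios join both limits by squaring and adding. No test was made. Spacing is from midpoint to midpoint and gaps are from edge to edge. Named regions, limited to 2L, 3L, 3R and X, were the pairs and peaks at the extremes of overlap, offset, width and gap. Width classes, score groups and the Mod(mdg4)2.2 midpoint distances were added after the files were seen. The comparison was chosen with earlier results of these data known. The overlap and interval functions were tested on simulated data. Python 3.11.15, NumPy 2.4.6, pandas 2.3.3, SciPy 1.17.1 and matplotlib 3.10.9 were used.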

Additional observations from a re-analysis of the deposited data

How the results depend on the processing

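Of 83 recomputed values under alternatives to the overlap rule, the set of peaks or the chromosomes, 64 stayed within the 95% interval of the reported value. Restricting to the 5 arms, leaving out X, requiring 50% of the narrower peak to be covered, merging peaks closer than 1 kb and keeping only pairs in which each peak met 1 peak moved none of the values out of that interval. Some of these could move little. The arms kept 2324 of 2369 Su(Hw) and 2724 of 2742 CP190 peaks, and the X differences could not change there. Of 1188 pairs, 30 failed the 50% rule and 1136 had each peak meeting 1 peak. With midpoints within 500 bp, the share was 43.9% for Su(Hw) and 37.9% for CP190, the median offset 64 bp, the width difference of Su(Hw) 90 bp and the Mod(mdg4)2.2 difference at CP190 peaks 63.03 points. With peaks resized to 300 bp these were 40.02%, 34.6%, 56.3 bp, 75 bp and 61.6 points. With both lists cut to their wider 50%, sharing was set anew, so a peak whose partner was cut counted as unshared. In these cut lists the shares were 42.7% and 37.3%, the offset 96.5 bp and the overlap 2094 bp. The width differences were 78 bp for Su(Hw) and 14 bp for CP190. The Mod(mdg4)2.2 differences were 22.04 points at Su(Hw) and 48.9 points at CP190 peaks. There the spacing ratio of Su(Hw), taken between kept peaks only, turned over to 1.22, with an interval (0.929 to 1.57) that includes 1. The X difference of Su(Hw) was 3.43 points there, within its interval. Among peaks of 2000 to under 2200 bp, an alternative chosen after seeing the data, the Mod(mdg4)2.2 differences were 38.3 points at Su(Hw) and 60.7 points at CP190 peaks. The 500 bp and 300 bp settings keep only pairs with near midpoints, so smaller shares and a smaller median offset follow from these settings. The cause of the other shifts was not tested. No paired analysis was possible because Su(Hw) and CP190 had 1 library each, and no test was made. For the same reason no library of these 2 factors could be left out. Depth is unknown, and whether unshared peaks had signal below the threshold in the other library was not tested.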

Other observations

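Peaks of both lists, merged where they overlapped, gave 3923 regions, of which 1161 (29.6%) held both factors, 1203 (30.7%) Su(Hw) only and 1559 (39.7%) CP190 only. Along the 5 arms, the next region after one of CP190 only was again CP190 only in 45.8% of 1547 cases (43.4 to 48.3), against 40.0% after any region. After a region of both factors the next held both in 32.4% of 1153 cases (29.7 to 35.1). The share after any region was 29.8%, within that interval. After Su(Hw) only it was Su(Hw) only in 33.2% of 1162 cases (30.6 to 35.98), against 30.2% after any region. The median gap to the next region was 12854 bp from both to both and 21094 bp from both to CP190 only. These were the shortest and the longest among the pairs of classes, and no interval was computed for them.

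With each arm divided into 5 equal stretches from the centromere outward, CP190 was at 52.9%, 47.5%, 45.6%, 49.2% and 55.8% of Su(Hw) peaks. The interval of the third (41.4 to 49.96) did not overlap that of the fifth (51.1 to 60.4). Su(Hw) was at 41.9%, 44.3%, 43.6%, 45.2% and 40.9% of CP190 peaks, with overlapping intervals throughout. The last peak of any of the 5 lists marked the end of an arm.

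On 2L, 3L, 3R and X, the most pairs in a 100 kb window were the 7 of chr2L:20200001-20300000, beside 1 unshared peak of each list, and 1 further window had as many. The most unshared CP190 peaks were the 8 of chrX:19500001-19600000, which held no Su(Hw) peak. The most unshared Su(Hw) peaks were the 6 of chr3L:3400001-3500000, a count reached by 5 windows, with 2 pairs and 2 unshared CP190 peaks.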
